A study of Mus musculus with 3 samples.

Results

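Expression of 10 genes of antigen presentation by MHC class I was followed in C3H10T1/2 cells, namely B2m, H2-K1, H2-D1, H2-T23, Tap1, Tap2, Tapbp, Tapbpl, Erap1 and Nlrc5. They were taken as the probe sets whose single annotated symbol is one of these 10 names. This gave 27 probe sets for 9 of the 10 genes, out of 18193 genes with such a probe set. H2-T23 had none of its own. On the array labelled Venus-Mkx, 7 of the 9 genes were at least 2-fold higher than on both control arrays, beside 6.82% of all measured genes. These were H2-D1, Tap1, Tap2, Tapbp, Tapbpl, Erap1 and Nlrc5. Of these, Nlrc5 was above the median of all values, the cut used here for background, on that array alone. H2-K1 was higher by just under 2-fold, and B2m differed little.

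C3H10T1/2 is a mesenchymal cell line from C3H mouse embryos. RNA was hybridized to 1 Affymetrix mouse genome array for each of 3 conditions. These were cells without a vector, C3H10T1/2-V cells, infected with a retrovirus that carries the fluorescent protein Venus, and C3H10T1/2-VM cells, whose retrovirus carries Venus-Mkx, the homeobox factor Mohawk joined to Venus. Infected cells were kept with puromycin, and whether the array RNA came from 1 clone or a pool was not stated for the arrays. With 1 array per condition, no difference below has a replicate check, no p-value is given, and differences between cultures cannot be told apart from those of the vector. Precision is limited by this number of arrays.

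Values are log2 probe set values as deposited, so a difference of 1 is 2-fold. They run from 1.44 to 14.00, and values below 4.34, the median of all values, were treated as background, without a detection call. This median is called the floor, and a gene whose highest value reached it was called measured. Each gene is given by its probe set of highest mean, unless others are named. Mkx itself, read by 1 probe set, had a value of 6.88 in C3H10T1/2, 7.43 in Venus and 2.71 on the array labelled Venus-Mkx. This runs opposite to the label. By the methods of the study the vector received the coding sequence of Venus-Mkx. Whether this probe set reads inside the coding sequence, and so reads the vector at all, is not known here. The array is therefore called by its label throughout. Col1a1, a gene of type I collagen, the main collagen of ligaments, had values of 11.52, 11.88 and 13.22 in the same order. Col1a1 and Thy1 were the 2 of 8 measured mesenchymal markers at least 2-fold above both controls, beside 6.82% of all measured genes. The other 6 were not, among them Col1a2, which differed from Venus by 0.15, and Pdgfra, by -0.69. The median difference of the 8 from Venus was -0.11, so Col1a1 does not stand for these markers. All 8 mesenchymal markers with a probe set were above the floor on each of the 3 arrays. The epithelial marker Epcam was as well, and 11169 of 18193 genes reached the floor on at least 1 array. Passing the floor thus does not by itself show a cell type. Values come from whole cultures, in which fewer cells of a type and less RNA per cell cannot be told apart.

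MHC class I molecules show peptides from inside the cell to cytotoxic T cells. Peptides made by the proteasome are pumped into the endoplasmic reticulum by the Tap1 and Tap2 transporter, trimmed by Erap1, and fitted by tapasin (Tapbp) into the groove of a heavy chain paired with β2-microglobulin (B2m). Interferons are known to raise most of these genes, and Nlrc5 is a transactivator of class I genes that acts at a conserved promoter module. Nearly all nucleated cells carry class I, in contrast to class II, which is made mainly by professional antigen-presenting cells.

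In the annotation of GRCm38.p6, 6 of the 10 genes lie on chromosome 17, between positions 33919478 and 36032701, in the mouse MHC. These are Tapbp, H2-K1, Tap1, Tap2, H2-D1 and H2-T23. The other 4 lie elsewhere, with B2m on chromosome 2, Tapbpl on chromosome 6, Nlrc5 on chromosome 8 and Erap1 on chromosome 13. RefSeq promoters, from 250 bases before to 50 bases after a start, were matched for 7 of the 10 genes. Those of 5 are printed here 5′ to 3′ on the strand of the gene, because they cover B2m, both classical heavy chains, the transporter and the peptidase, which differed from one another on the arrays. Capitals mark matches, on either strand, to the interferon-stimulated response element (ISRE, searched as GAAA, any 2 bases and GAAA), to the core of the cAMP response element (TGACG), and to the inverted CCAAT or Y box (ATTGG). The core and the Y box resemble parts of the conserved class I module. The windows of H2-K1 and Erap1 lie wholly inside the annotated gene. Erap1 begins at 74639573 on the + strand and H2-K1 at 34000619 on the - strand, so the starts used lie downstream of these.
B2m (chr2:122147437-122147736, + strand): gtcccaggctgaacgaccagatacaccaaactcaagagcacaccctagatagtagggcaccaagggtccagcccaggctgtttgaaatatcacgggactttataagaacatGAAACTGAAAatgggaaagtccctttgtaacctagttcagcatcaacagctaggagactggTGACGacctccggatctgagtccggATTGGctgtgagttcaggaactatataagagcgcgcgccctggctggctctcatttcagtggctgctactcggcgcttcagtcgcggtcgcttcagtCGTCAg
H2-K1 (chr17:34000298-34000597, - strand): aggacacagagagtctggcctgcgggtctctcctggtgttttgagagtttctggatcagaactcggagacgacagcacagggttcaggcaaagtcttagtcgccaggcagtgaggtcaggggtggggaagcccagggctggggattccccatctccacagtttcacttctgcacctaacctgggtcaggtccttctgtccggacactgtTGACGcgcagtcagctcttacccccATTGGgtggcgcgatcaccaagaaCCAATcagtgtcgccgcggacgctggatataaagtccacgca
H2-D1 (chr17:35262844-35263143, + strand): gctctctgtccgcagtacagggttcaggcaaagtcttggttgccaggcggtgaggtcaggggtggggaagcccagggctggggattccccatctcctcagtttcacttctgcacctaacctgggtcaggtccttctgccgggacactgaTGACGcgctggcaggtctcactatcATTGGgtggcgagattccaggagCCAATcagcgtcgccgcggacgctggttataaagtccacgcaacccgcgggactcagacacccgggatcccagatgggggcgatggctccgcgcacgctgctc
Tap1 (chr17:34187306-34187605, + strand): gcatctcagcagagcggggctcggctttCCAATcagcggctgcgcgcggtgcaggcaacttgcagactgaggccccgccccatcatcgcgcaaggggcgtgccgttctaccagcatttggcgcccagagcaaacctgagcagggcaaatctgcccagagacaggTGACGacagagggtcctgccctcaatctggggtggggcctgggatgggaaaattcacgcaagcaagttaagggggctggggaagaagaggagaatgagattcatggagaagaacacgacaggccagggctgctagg
Erap1 (chr13:74639603-74639902, + strand): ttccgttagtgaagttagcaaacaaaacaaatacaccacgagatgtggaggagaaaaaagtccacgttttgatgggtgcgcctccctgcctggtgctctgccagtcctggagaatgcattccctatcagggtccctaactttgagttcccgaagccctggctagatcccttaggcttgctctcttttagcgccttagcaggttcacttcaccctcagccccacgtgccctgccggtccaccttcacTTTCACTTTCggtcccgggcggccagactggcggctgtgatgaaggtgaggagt

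The ISRE letters were found in the promoters of B2m, at bases -139 to -130 from the start, of H2-T23, at -124 to -115, and of Erap1, at -4 to 6. Thus 3 of the 7 promoters held them, beside 3.49% of 27025 promoters of the same length. The search took exact letters, so near matches, such as tttcacttct in both H2-K1 and H2-D1, were not counted. A promoter without a match is therefore not shown to lack the element. A Y box match was found in 6 of the 7, beside 37.9%, and the core of the cAMP response element in 4 of the 7, beside 21.0%. In H2-D1 the core at -101 to -97 lay upstream of a Y box match at -76 to -72, and in H2-K1 both were found in the same order, at -41 to -37 and -16 to -12. Positions in H2-K1 and Erap1 count from starts inside the gene, so they cannot be compared with those of the other genes. None of the 7 held the letters TTCNNNGAA, the interferon gamma-activated site, which 8.47% of promoters held. B2m, whose promoter holds the ISRE letters, the core and the Y box, was the gene that differed least. Tapbp, which was among the genes that differed most, held 2 Y box matches and neither of the other elements. A match is a description of these windows and says nothing on binding. Whether the matches bear on the differences between the arrays was not tested. The genome is that of C57BL/6J, and C3H mice carry another haplotype of the MHC.

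B2m, which encodes the light chain shared by all class I molecules, read 12.14 on the log2 scale in C3H10T1/2, 12.46 in Venus and 12.31 on the array labelled Venus-Mkx. The 3 arrays lay within 0.32 of one another, with the array labelled Venus-Mkx between the controls. Its second probe set read 11.62, 11.82 and 11.76 in the same order of conditions. The difference of the array labelled Venus-Mkx from Venus was -0.15 and -0.062 for these probe sets. Both read within the upper part of a scale that ends at 14.00, where differences can be compressed, and whether this touched B2m was not tested.

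The classical heavy chains present peptides to CD8 T cells. H2-D1, read by 1450170_x_at, had a value of 8.04 in C3H10T1/2, 8.95 in Venus and 10.49 on the array labelled Venus-Mkx. It was highest on the array labelled Venus-Mkx, 2.91-fold above Venus and 5.47-fold above C3H10T1/2, and Venus itself lay 0.91 above C3H10T1/2. H2-K1, read by 1451931_x_at, had an equal value of 6.35 in both controls and of 7.31 on the array labelled Venus-Mkx. Its difference of 0.96, or 1.95-fold, was just short of 2-fold.

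Class I heavy chains are highly alike and differ between strains, and the array reads them with several probe sets made from different sequences. Of the 9 probe sets of H2-D1, 7 were measured, and all 7 were above Venus, by 0.31 to 1.54 on the log2 scale, 4 of them at least 2-fold above both controls. Among the 7, 1451683_x_at read 4.09, 3.82 and 4.61 and reached the floor through the array labelled Venus-Mkx alone. It could therefore only lie above Venus. Over the mean of all 9 the difference was 0.77, less than 2-fold, and the one measured without the suffix _x_at, 1426324_at, differed by 0.31. Of the 4 probe sets of H2-K1, 3 were measured. The other 2 of these differed from Venus by 1.19, with 1425336_x_at, and by 1.09, with 1427746_x_at. With values below the floor read as the floor, the array labelled Venus-Mkx was 1.30 above it for the first and 0.99 above it for the second, so 2-fold is not shown for the second. Most of these probe sets carry the suffix _x_at, which marks probes that may bind related transcripts. A probe set annotated to both H2-K1 and H2-D1 read 3.14, 3.59 and 6.04 in C3H10T1/2, Venus and the array labelled Venus-Mkx. How much of each value comes from H2-K1, H2-D1 or another heavy chain was not tested.

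H2-T23 encodes Qa-1, a non-classical heavy chain that presents leader peptides to receptors on natural killer cells. Both of its probe sets are annotated to H2-T-ps as well, so no value was assigned to H2-T23. One of them, 1449556_at, read 5.87 in C3H10T1/2, 7.03 in Venus and 12.47 on the array labelled Venus-Mkx, which is 5.44 above Venus and 6.60 above C3H10T1/2. Here Venus was 1.16 above C3H10T1/2. The other, 1419658_at, was below the floor on all 3 arrays.

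**Figure D1:**
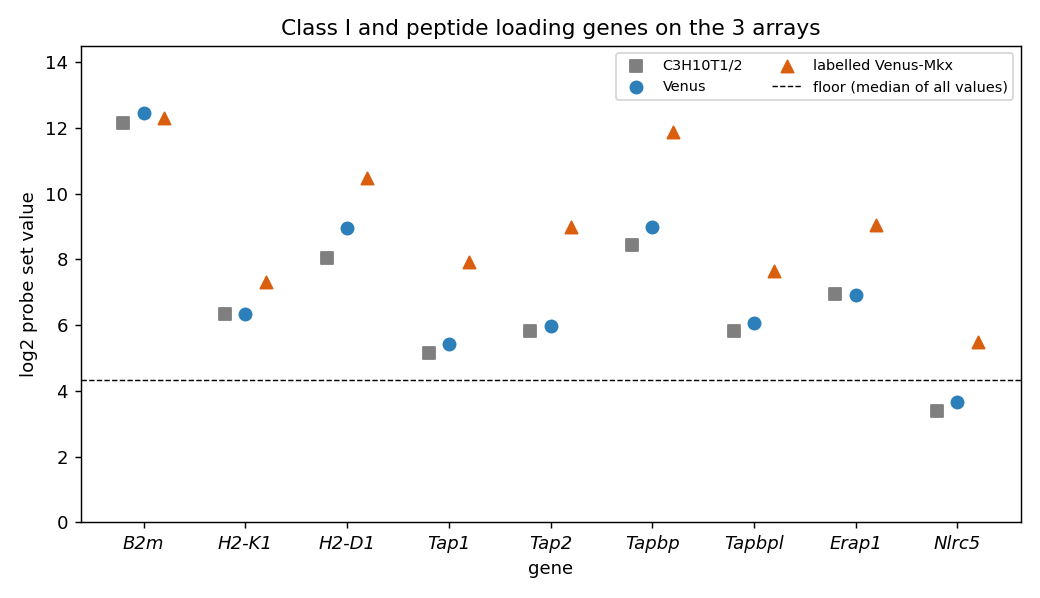
Log2 value of the probe set used for each of 9 genes on the arrays of C3H10T1/2 (squares), Venus (circles) and labelled Venus-Mkx (triangles), with 1 array per condition and the floor of 4.34 as a dashed line. The triangle is the highest of the 3 symbols for every gene but B2m, and both control values of Nlrc5 lie below the floor.

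The peptide transporter genes differed most, together with Tapbp. Tap1, which encodes the first subunit of the transporter, had a value of 5.16 in C3H10T1/2, 5.43 in Venus and 7.93 on the array labelled Venus-Mkx. The controls lay close together and the array labelled Venus-Mkx was 5.68-fold above Venus and 6.83-fold above C3H10T1/2. Of 4 Tap1 probe sets, the other 3 were below the floor on all 3 arrays, and so was their mean with the probe set used. Tap2, the partner subunit, had 1 probe set, with values of 5.81, 5.96 and 8.98 in the same order. Its difference was 3.02 from Venus and 3.17 from C3H10T1/2, and it ranked 143 of 11169 measured genes by the difference from Venus.

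Tapbp and Tapbpl encode tapasin and its homologue TAPBPR, which select peptides on class I. Tapbp had a value of 8.45 in C3H10T1/2, 8.99 in Venus and 11.89 on the array labelled Venus-Mkx. This was 7.47-fold above Venus and 10.9-fold above C3H10T1/2, the largest of the 9 differences from C3H10T1/2. Its second probe set, 1450378_at, was below the floor in C3H10T1/2 and differed from Venus by 1.62. Tapbpl had values of 5.82, 6.07 and 7.64 in the same order, which puts the array labelled Venus-Mkx 1.57 above Venus and 1.81 above C3H10T1/2. The second probe set of Tapbpl was below the floor on all 3 arrays.

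Erap1, the aminopeptidase that trims peptides in the endoplasmic reticulum, had a value of 6.94 in C3H10T1/2, 6.93 in Venus and 9.06 on the array labelled Venus-Mkx. The controls were nearly equal, and the array labelled Venus-Mkx was 4.40-fold above Venus. The second probe set, 1439068_at, gave a like difference of 2.24. Nlrc5, the transactivator, had values of 3.40 and 3.67 in C3H10T1/2 and Venus, both below the floor, and of 5.48 on the array labelled Venus-Mkx. Read against the floor, it was at least 2.20-fold higher there. Nlrc5 thus reached the floor through the array labelled Venus-Mkx alone, whereas the other 8 genes reached it on all 3 arrays.

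Counted together, 7 of the 9 genes with a probe set exceeded both controls at least 2-fold and none was lower, beside 6.82% higher and 5.34% lower among all 11169 measured genes. Without Nlrc5 the count was 6 of 8. The median difference of the 9 genes from Venus was 1.81, which is the value of Nlrc5 as read, against 0.00 for all measured genes. It was 1.85 without Nlrc5 and 1.57 with control values below the floor read as the floor. Over probe sets, 20 of the 27 were measured and 14 of these were, as read, at least 2-fold above both controls. Among these 14, that of Nlrc5 and 1427746_x_at of H2-K1 reached the floor through the array labelled Venus-Mkx alone. The share over all probe sets was not computed, and probe sets of the same gene are not independent of each other. The other 6 measured probe sets were both of B2m, 1 of H2-K1 and 3 of H2-D1. The 7 probe sets that were not measured include 4 with an equal value on all 3 arrays, which carry no information on a difference.

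**Figure D2:**
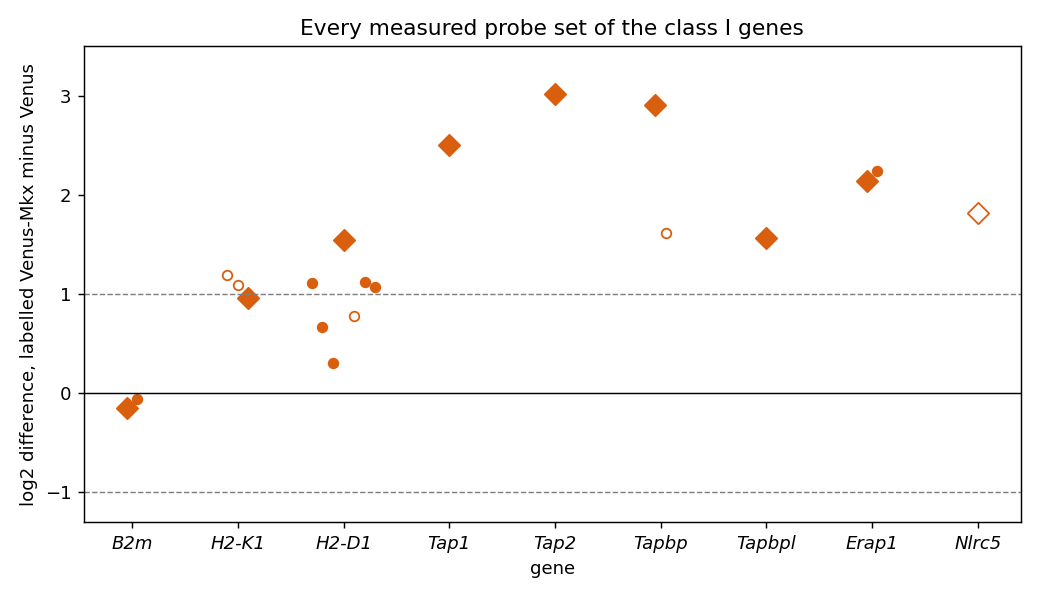
Difference on the log2 scale, labelled Venus-Mkx minus Venus, for each of the 20 measured probe sets, 1 array per condition. Diamonds are the probe sets used for each gene, circles are its other probe sets, open symbols have a control value below the floor, and dashed lines mark 2-fold. The probe sets of B2m lie at -0.15 and -0.062 and those of H2-D1 spread from 0.31 to 1.54.

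Venus and C3H10T1/2 differed much less in these genes. None of the 9 was at least 2-fold higher or lower in Venus, beside 1.49% higher and 0.555% lower among all measured genes. H2-D1 differed most, by 0.91, followed by Tapbp, by 0.54. Tap1, Tap2, Tapbpl, Nlrc5 and B2m lay between 0.15 and 0.32 above C3H10T1/2, H2-K1 was equal and Erap1 differed by -0.012. The median was 0.26, against 0.00 for all measured genes. Both comparisons use the Venus array, once as control and once as the condition, so their values are not independent of each other.

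**Figure D3:**
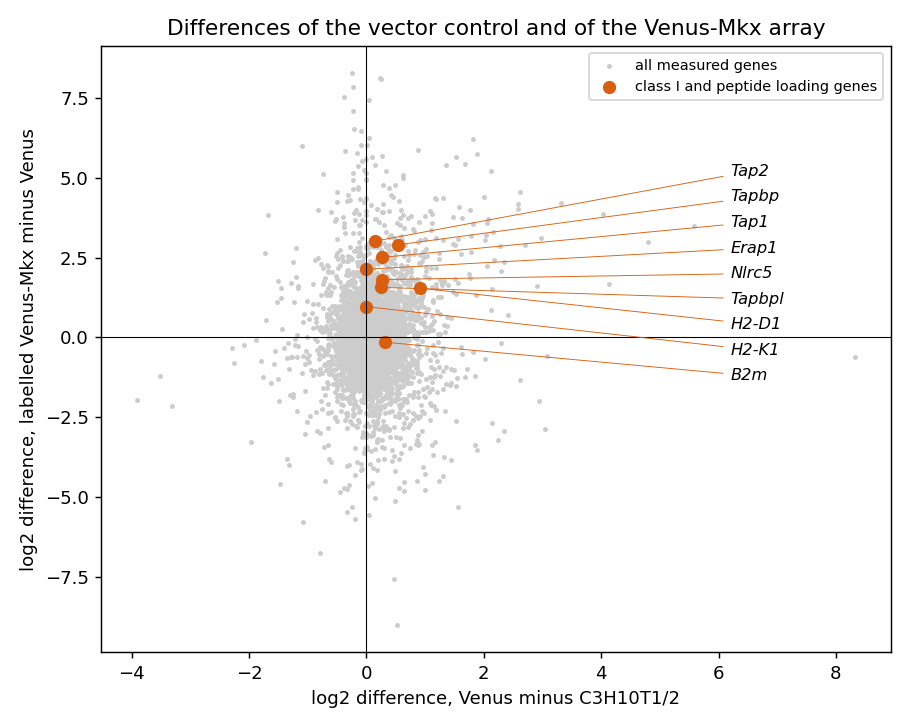
Log2 difference of the array labelled Venus-Mkx from Venus (vertical) against that of Venus from C3H10T1/2 (horizontal) for the 11169 measured genes (grey) and for 9 class I and peptide loading genes (orange), 1 array per condition. The orange points lie between -0.012 and 0.91 on the horizontal axis and between -0.15 and 3.02 on the vertical axis.

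Genes of the steps before the transporter are given list by list. All 4 immunoproteasome genes with a probe set of their own encode catalytic subunits or an activator that interferon adds to the proteasome. All were at least 2-fold higher on the array labelled Venus-Mkx than on both controls, beside 6.82% of all measured genes. Psmb8 had values of 4.65, 5.27 and 10.26 in C3H10T1/2, Venus and the array labelled Venus-Mkx. Psmb9, whose start lies next to that of Tap1, had values of 5.23, 5.87 and 9.29. Psmb10 and Psme1 differed from Venus by 3.04 and 2.20. None of the 3 constitutive catalytic subunits that they replace was 2-fold apart, with differences from Venus of -0.18 for Psmb5, -0.072 for Psmb6 and 0.17 for Psmb7. None of 5 measured peptidases of the cytosolic peptide pool was either, and Lap3 lay lowest, at -0.55. Counts of 0 of 3 and 0 of 5 are near the share of all measured genes, 6.82% higher and 5.34% lower.

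Of the general chaperones of the endoplasmic reticulum, none of 7, among them the lectin chaperones Calr and Canx, reached 2-fold from both controls. A count of 0 of 7 is near the share of all measured genes, 6.82% higher and 5.34% lower. They had a median difference from Venus of 0.073. Ganab had the largest difference, of 0.36. Of other class I heavy chains and class I-like genes, 2 of 8 measured exceeded both controls at least 2-fold, beside 6.82% of all measured genes. The other 6 did not and none was 2-fold lower. The median difference of the 8 from Venus was 0.15. H2-T24, a heavy chain gene of the T region, was below the floor in both controls and read 7.95 on the array labelled Venus-Mkx, 3.61 above the floor. H2-M3, which presents formylated peptides, had values of 5.43, 5.51 and 6.68. Fcgrt, the neonatal receptor for IgG, which also pairs with B2m, differed by -0.68 from Venus, and Procr, the endothelial protein C receptor, by -1.40 from Venus and -0.28 from C3H10T1/2.

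Of 12 measured genes for transcription factors that act at class I promoters, 3 exceeded both controls at least 2-fold, beside 6.82% of all measured genes. These were Irf1, Stat2 and Irf9, which are factors of interferon signalling. Irf1 had values of 7.93, 7.89 and 10.01 in C3H10T1/2, Venus and the array labelled Venus-Mkx, so the controls were alike. Irf9 had values of 6.24, 7.74 and 9.57, so Venus was already above C3H10T1/2. None of the genes for the RFX, CREB and NF-Y proteins, with which Nlrc5 acts at the conserved module, was 2-fold apart. For so few genes this is near the share of all measured genes, 6.82% higher and 5.34% lower. Rfxap lay lowest among them, at -0.59 from Venus. The interferon genes Ifnb1, Ifna4 and Ifng were below the floor on all 3 arrays. The receptor genes Ifnar1, Ifnar2, Ifngr1 and Ifngr2 differed from Venus by 0.050, 0.20, -0.028 and -0.46. Of 10 measured genes of interferon ligands, receptors and feedback, 2 exceeded both controls at least 2-fold, beside 6.82% of all measured genes. These were Socs3 and Usp18, which restrain cytokine and interferon signalling. The other 8 did not, and the median difference of the 10 from Venus was 0.078. Usp18 also stood apart between the controls, with 7.22 in Venus and a value below the floor in C3H10T1/2.

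**Figure D4:**
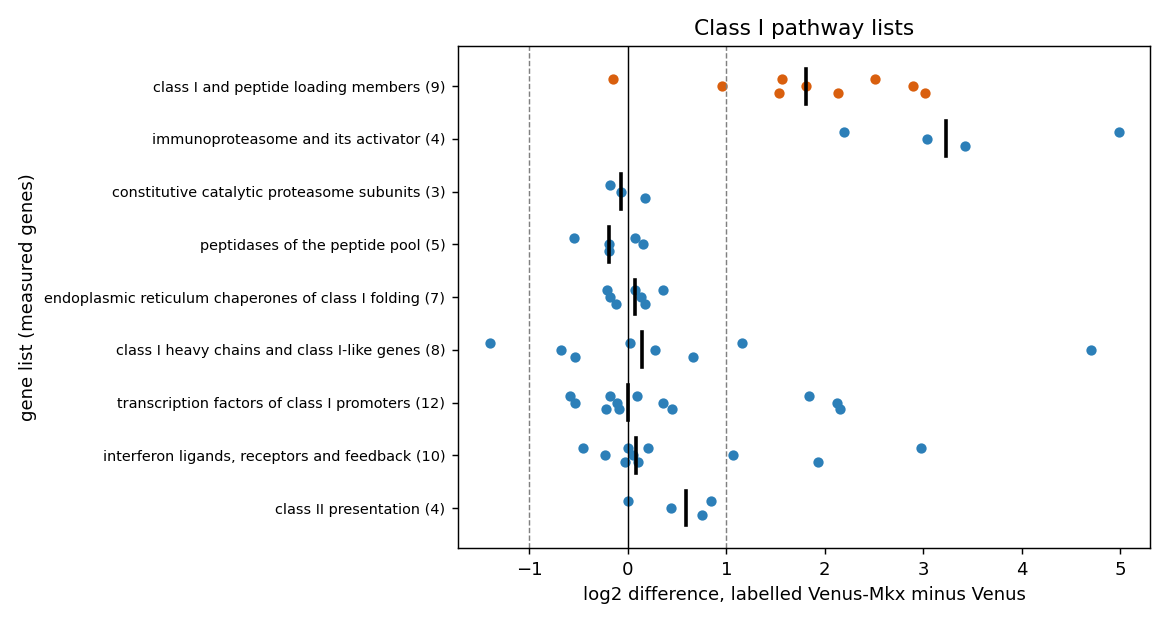
Difference on the log2 scale, labelled Venus-Mkx minus Venus, for the measured genes of 9 lists, 1 array per condition. Points are genes, black bars are medians, dashed lines mark 2-fold and the number of measured genes follows each name. The median is 1.81 for the class I and peptide loading genes, 3.23 for the immunoproteasome genes and between -0.19 and 0.59 for the other lists.

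Class II genes were mostly not measured. Of 12 class II genes with a probe set, 8 were below the floor on all 3 arrays, including H2-Aa, H2-Ab1, H2-Eb1 and the class II transactivator Ciita. The other 4 were not 2-fold apart, and Cd74, the invariant chain, had values of 4.95, 4.95 and 5.70. Markers of white blood cells were mostly not measured. Of 8 leukocyte and macrophage markers, Ptprc, Cd68, Adgre1, Itgam, Itgax and Tyrobp were below the floor on all 3 arrays. Csf1r, the receptor of a macrophage growth factor, read 4.45, 5.39 and 6.62, at least 2-fold above both controls. It was 1 of 2 measured markers, beside 6.82% of all measured genes. Laptm5, the other measured marker, read 4.99, 4.52 and 4.70. The sum of the 8 markers on a linear scale was 94.7, 106 and 165 in the same order, and its rise comes from Csf1r. The part of such cells in the class I values was not tested beyond this. All 5 lymphocyte markers with a probe set were below the floor on all 3 arrays. Of 5 endothelial and 5 epithelial markers, 1 each was measured. These were Tek, with 4.53, 4.02 and 5.95, and Epcam, with 6.74, 7.03 and 7.60. None of 7 housekeeping genes was 2-fold apart, and their median difference from Venus was -0.19. For these and for the 4 measured class II genes, the counts are near the share of all measured genes, 6.82% higher and 5.34% lower.

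The nearest measured protein-coding gene on each side of the 10 genes gave 18 different genes. Genes of the pathway lists were passed over, among them Psmb8 and Psmb9, which lie beside Tap1 and were higher. None of the 18 was at least 2-fold from both controls in one direction, which is near the share of all measured genes, 6.82% higher and 5.34% lower. Their median difference from Venus was -0.037, with a range of -1.11 to 0.82. Tapbp lies between Zbtb22 and Rgl2, at 0.15 and 0.22 kb from it. These 2 differed from Venus by -0.34 and 0.12, whereas Tapbp differed by 2.90. Cpne2, 5.40 kb from Nlrc5, was the lowest, at -1.11 from Venus and -0.56 from C3H10T1/2.

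The genes whose pair of differences lay nearest to the pair of medians of the 9 genes, 0.26 for Venus and 1.81 for the array labelled Venus-Mkx, were Cd34, Pdxk, Dnm1, Ankrd1 and BC023105. The second of these medians is the value of Nlrc5 against a Venus value below the floor. The Euclidean distances ran from 0.040 to 0.078 on the log2 scale, over 2 differences from 3 arrays. Pdxk, for example, had values of 8.19, 8.40 and 10.16. Cd34 and BC023105 were below the floor in both controls.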

How the data were processed

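Total RNA of each condition was labelled with biotin and hybridized to 1 Affymetrix mouse genome array. The values deposited by the authors are on a log2 scale and had been normalized across the arrays. Their methods name MAS 5.0, whereas their processing notes name RMA (version not given in the sources used here). Values were used with no further normalization. Of 45101 probe sets, 34945 were paired with 1 gene symbol, 932 with several, which were assigned to no gene, and 9160 with none, beside 64 control probe sets. Symbols were updated by gene identifier through the RefSeq table of GRCm38.p6. Each of 18193 genes was given by its probe set of highest mean, and 11169 of them reached the floor of 4.34 on at least 1 array. Values near or below the floor are the least precise, and 24.6% of all probe sets have the same value on each array.

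A 2-fold difference in the same direction from each control array was required to count a gene. No p-value was computed, because each condition has 1 array. The genes named are every member, up to 4 genes of each list with the largest absolute difference from Venus, Mkx and the 5 genes of nearest pattern. Other genes of a list that are named were chosen after their values were seen, as were the neighbouring genes given with values. The members and lists were chosen with earlier results of these data known. Motifs were searched as exact letters. Alternatives covered the floor, the probe sets per gene, the scale, the control and the fold threshold. Scripts ran in Python 3.11.15 with pandas 2.3.3, NumPy 2.4.6, matplotlib 3.10.9 and SciPy 1.17.1.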

Additional observations from a re-analysis of the deposited data

How the results depend on the processing

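The count of 7 genes at least 2-fold higher than both controls ran from 5 to 8 over the alternatives of floor, probe set, scale, control and threshold. It was 6 with the floor at the 75th percentile, which Nlrc5 did not reach, 5 with the mean of all probe sets, 6 without _x_at and _s_at probe sets, 8 at a 1.5-fold threshold and 5 at a 3-fold threshold, of which Nlrc5 is not shown at 3-fold, because 4 were counted with values below the floor read as the floor, a setting chosen after seeing the data. The choice of probe set touched Tap1 and H2-D1 most. The difference of H2-D1 from Venus was 0.77 with the mean of all its probe sets and 0.31 without those marked _x_at and _s_at, and H2-K1 had no probe set left in that setting. The mean of all probe sets of Tap1 takes in 3 below the floor and was itself below the floor, so Tap1 gave no count there. Its difference from Venus was then 0.63. The median difference of these genes from Venus stayed between 1.47 and 2.12, the latter against C3H10T1/2. The count of genes at least 2-fold higher in Venus than in C3H10T1/2 was 0 in every setting but the 1.5-fold threshold, where it was 1, H2-D1. Of 111 differences of single genes under the alternatives, 103 moved by less than 0.34 and 8 by more. This 0.34 is the SD of the difference between the control arrays over measured genes. The settings without a floor and with the floor at the 75th percentile only select genes, so no difference could move there. Centring moves all differences between the same arrays equally. Many of the 103 were thus fixed in advance, and this count overstates how stable the differences are. None of the differences of at least 2-fold changed sign. A gene that a setting dropped has no value among the 111. The move of Tap1 from 2.51 to 0.63 is therefore not counted in them. Centring the arrays or quantile normalization changed no count. No paired analysis was possible because each condition has 1 array. Signal over background limits the low values, above all those of Nlrc5.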

Other observations

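Genes for surface ligands of T and natural killer cells were mostly not measured. Of 6 with a probe set, Pdcd1lg2, Cd86, Icam1 and Ulbp1 were below the floor on all 3 arrays. Cd80, a costimulatory ligand of T cells, had log2 values of 6.30 in C3H10T1/2, 7.29 in Venus and 3.02 on the array labelled Venus-Mkx. The last is below the floor, which lies 2.95 under Venus and 1.96 under C3H10T1/2, so Cd80 was lower there by at least these log2 differences. Cd274, which encodes the inhibitory ligand PD-L1, was below the floor in both controls and read 5.07 on the array labelled Venus-Mkx, 0.73 above the floor, which does not show a 2-fold difference. These values are descriptions of 3 arrays, without replicates.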
